A study of Oryza sativa with 4 samples.

Results

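Rice spikelets of the parent cultivar ZH11 were compared between anther stage 12 and anther stage 9, to describe gene expression over the span in which normal pollen matures. The comparison takes 2 of the 4 arrays of the series, the ones titled ZH11-stage12 and ZH11-stage9, with 1 array a stage. It covers 57258 of the 57381 probe sets, all but the 123 controls, and the 17905 genes that these probe sets name. ZH11 (Zhonghua 11) is a japonica cultivar. The plants stood in a field under natural conditions, received no treatment and carried no transgene. The other 2 arrays, read here beside ZH11, hold spikelets of the same stages and background in which OsCPK21, a calcium-dependent protein kinase, was silenced by RNA interference (RNAi). The labels name 3 RNAi lines, and pooling of lines or plants is not given in the sources used here. Whole spikelets were used, so lemma, palea, lodicules, pistil and stamens share each value, and fewer cells of a type cannot be told apart from less RNA per cell.

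In the rice anther the tapetum, the innermost wall layer, feeds the young microspores, makes the lipids and proteins of the pollen wall, and then breaks down. Stage 9 is the time of young free microspores with an active tapetum. By stage 12 pollen has stored starch and has made proteins that serve germination and tube growth, such as expansins that loosen walls and regulators of actin filaments.

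Each deposited value is a signal intensity on a linear scale, in array units. Signals below 71, called the floor, were raised to 71 before the log2 ratio of stage 12 over stage 9 was taken. A gene was called higher (rose) or lower (fell) if the ratio reached 2-fold and the brighter array lay above the floor. If the dimmer array lay at or below the floor, the fold is a bound, written "at least". With a single array per stage there is no replicate spread, SD or test, so each value compares these arrays only and their number sets the precision.

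OsCPK21 had signals of 1939.6 and 2719 on the ZH11 arrays at stages 9 and 12, and of 206 and 17.6 on the RNAi arrays. The titles and these signals point the same way, but the genotype characteristic gives the other genotype for all 4 samples, and if it were right the values given as ZH11 would be those of RNAi spikelets. The trimmed mean signals of the ZH11 arrays were 367 and 363. Ratios of 3-prime over 5-prime control signals were 0.895 to 3.89 at stage 9 and 1.36 to 10.3 at stage 12. They come from a single set of control probe sets each for actin, Gapdh and cyclophilin. A second actin set had 3-prime signals of 8176 and 9749 at stages 9 and 12. Its 5-prime signals were 1466 and 673, so its ratios were larger than the ranges above at both stages. The 18S rRNA signal was 5522 at stage 9 and 2193 at stage 12. These signs of RNA quality and makeup moved with stage on the same arrays as every result below, and their part in the results was not tested.

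The tissue and stage labels were set against marker genes. A marker could be used only where its symbol matched a measured gene. Of 19 tapetum markers listed, 12 were matched. These 12 were above the floor at stage 9 and 9 of them at stage 12, 10 were lower, and their summed signal was 51899 at stage 9 and 5128 at stage 12. RTS, a gene of the tapetum needed for fertile pollen, went the other way and rose 20.2-fold, from 79.3 to 1603. GAMYB, a gibberellin-regulated factor of the tapetum, had signals of 1969.9 at stage 9 and 1727 at stage 12. Of 12 late pollen markers listed, 4 were matched (EXPB9, EXPB10, ADF1 and ADF6), and these 4 were higher, with summed signals of 201.8 and 37503. Of the 9 MADS-box markers of the whole flower all were above the floor at both stages. The 1 called among them was MADS5, which fell 3.25-fold, from 4671 to 1436. The 6 matched of 10 markers of meiotic cells stayed within 2-fold, with summed signals of 2127 and 1421. For PAIR1, HEI10, MER3 and DMC1 a 2-fold fall could not be called, since their stage 9 signals of 71.15 to 115 lay near the floor. PAIR2 had 962 at stage 9 and 564 at stage 12, and MEL1 had 769 and 434. Of the 5 pistil and ovule markers 2 were higher. MADS13, which specifies ovules, rose 9.49-fold, from 110.3 to 1047. MADS21, a close relative of MADS13, rose at least 3.80-fold, from 37.1 to 270.1. The 3 matched of 7 green tissue markers (RBCS, PSAG and LFNR1) were higher, with summed signals of 1512 and 6421. On the RNAi arrays the green markers summed to 996 and 7141, while the late pollen markers summed to 185 at stage 9 and 226 at stage 12.

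**Figure D1:**
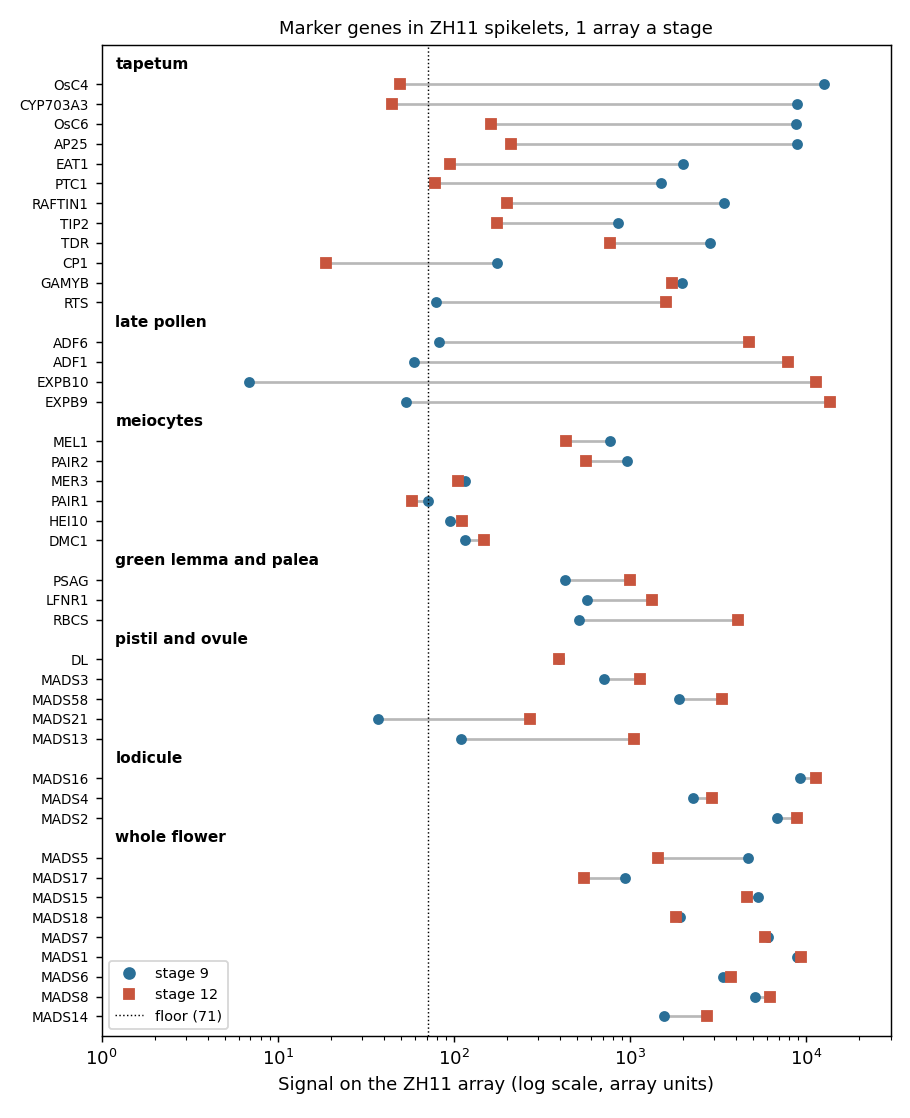
Signals of the matched marker genes on the ZH11 arrays at stage 9 (blue circles) and stage 12 (red squares), on a log axis in array units, with 1 array a stage and the floor of 71 as a dotted line. Tapetum markers other than GAMYB and RTS lie further left at stage 12, and the 4 late pollen markers lie far to the right.

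Of 16380 genes above the floor at either stage, 2807 (17.1%) were higher at stage 12, 2574 (15.7%) were lower and 10999 (67.1%) stayed within 2-fold. At 4-fold the counts were 1227 higher (7.49%) and 1097 lower (6.7%). At 16-fold they were 323 (1.97%) and 210 (1.28%), and at 64-fold 58 (0.354%) and 39 (0.238%). Over probe sets, named or not, 4682 (13.4%) were higher and 4572 (13.1%) lower. The median log2 ratio of the 16380 genes was 0.07. A total of 1307 genes were above the floor at stage 12 alone, 808 at stage 9 alone and 1525 at neither stage. Of the 1000 brightest probe sets at stage 9, 536 were among the 1000 brightest at stage 12. ZH11 and RNAi spikelets of the same stage shared 848 of 1000 at stage 9 and 749 at stage 12.

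**Figure D2:**
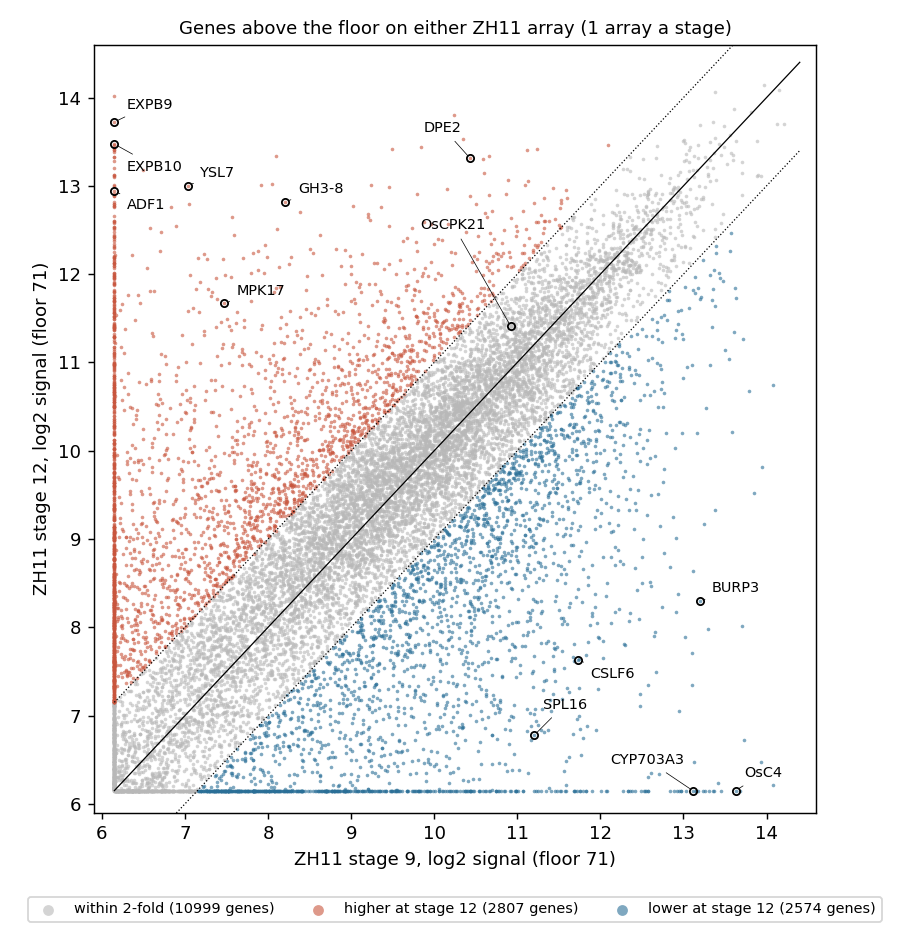
Log2 signal of each gene above the floor on the ZH11 stage 9 array (x axis) and stage 12 array (y axis), with values floored at 71. Red points were called higher, blue lower and grey within 2-fold, and dotted lines mark 2-fold; EXPB9 stands at the floor at stage 9, and OsC4 at the floor at stage 12.

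Many of the large rises were of genes that stood at or below the floor at stage 9. EXPB9 and EXPB10, beta-expansins of the grass pollen allergen group, ended at 13529 and 11378 at stage 12. VLN4, a villin that bundles actin filaments, rose at least 57.6-fold, from 26.2 to 4091. ADF9, of the family that severs them, rose at least 53.4-fold, from 22.1 to 3790.2. Calcium genes were a second group of this kind. ACA1, of the calcium ATPase family, rose at least 52.8-fold, from 55.1 to 3751. CIPK5, a kinase that works with calcineurin B-like calcium sensors, rose at least 57.4-fold, from 35.1 to 4073. Gibberellin synthesis gave a further pair. CPS1, which makes the first committed diterpene of the pathway, rose at least 58.0-fold, from 38.6 to 4120.3. KAO, which oxidises kaurenoic acid, rose at least 56.9-fold, from 43.7 to 4040.2. Enzymes and transporters of other kinds stood beside them. BGLU38, a beta-glucosidase, rose at least 58.3-fold, from 44.8 to 4141. NifU1, of the iron-sulphur cluster scaffold family, rose at least 83.6-fold, from 39.9 to 5932. YSL7, a yellow stripe-like metal transporter and the only gene of this paragraph above the floor at stage 9, rose 62.5-fold, from 131 to 8205. In RNAi CPS1 was called higher, from 45.0 to 232, and the other 10 genes of this paragraph were not.

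Among loci that have no symbol, 3 had the largest bounds at stage 12. LOC4347012 rose at least 234-fold, from 24.1 to 16584. LOC4339485 rose at least 159-fold, from 47.2 to 11272. LOC4331323 rose at least 155-fold, from 44.5 to 11039. None of these 3 was called in RNAi, and the tables used here give no function for them.

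Genes that fell had roles in the tapetum and in many other processes. OsC4, one of the anther lipid transfer protein genes, fell at least 178-fold, from 12657 to 49.7. OsC6, which carries lipids for the pollen wall, fell 54.0-fold, from 8767 to 162, and was below the floor on both RNAi arrays. AP25, an aspartic protease that acts in tapetal cell death, fell 41.9-fold, from 8803 to 209.9. The wall of the pollen grain was represented by an enzyme as well. CYP703A3, a fatty acid hydroxylase needed for the pollen wall, fell at least 125-fold, from 8854 to 44.6. GER5, a germin-like protein, fell at least 51.0-fold, from 3618 to 53.2. BURP3, of a plant family of secreted proteins, fell 29.8-fold, from 9369.7 to 314. A cyclin and several transcription factors were among them. CYCP2-1, a P-type cyclin, fell 34.1-fold, from 3067 to 89.9. SPL16, a factor that sets grain width, fell 21.5-fold, from 2362 to 109.8. Hox28, a homeodomain factor, fell at least 17.5-fold, from 1243 to 68.2. Some carried out transport, signalling or lipid supply. NIP4-1, a nodulin-like aquaporin, fell 27.5-fold, from 2244 to 81.5, and was at or below the floor on both RNAi arrays. TDL1B, of the secreted ligand family that acts with the anther receptor MSP1, fell 21.7-fold, from 2489.6 to 114, although a second probe set gave a log2 ratio of -0.37. ACLA-2, a subunit of ATP citrate lyase, which makes acetyl-CoA for lipid synthesis, fell 10.4-fold, from 12306 to 1189, and was named for its brightness at stage 9. MSP1, that receptor, which limits the number of cells that form spores, fell 4.25-fold, from 1814 to 427.

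A run of 5 neighbouring genes fell together, a feature chosen after its values were seen. LOC4348119 fell 82.8-fold, from 6679.8 to 80.7. LOC4348120 fell 234-fold, from 17334 to 74.1. LOC4348121 fell 128-fold, from 13549.9 to 105. The remaining neighbours had falls of like size. LOC4348122 fell at least 185-fold, from 13106 to 34.4. LOC4348123 fell 146-fold, from 10974 to 75.3. The 5 are consecutive in the RefSeq gene order of assembly ASM3414082v1, and some of their probe sets are of a kind that can match several genes, so the signals may share transcripts. They fell in RNAi too, with log2 ratios between -7.23 and -3.54. In all, 17 adjacent pairs had both genes 16-fold higher or both 16-fold lower, among them LOC4331323 with EXPB10, and LOC4351130 with JAMYB, a jasmonate-induced MYB factor. Of the measured neighbours of a higher gene 20.4% were higher, against 16.9% of all neighbours, and of those of a lower gene 18.7% were lower, against 15.8%. Neighbours that arose by duplication can share probe sequence, and this was not separated out. The median gene length in that assembly was 2111.5 bases for genes 16-fold higher and 2079.5 bases for genes 16-fold lower, against 3597 bases over all measured genes.

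Gene families were read as lists of symbols, each described by its calls and its median log2 ratio beside the 17.1% higher, 15.7% lower and median of 0.07 over all genes. The 105 lists held 1389 measured genes, of which 21.7% were higher and 20.9% lower. In 50 lists more members were higher than lower, in 44 more were lower, and in 65 at least 1 member went each way.

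**Figure D3:**
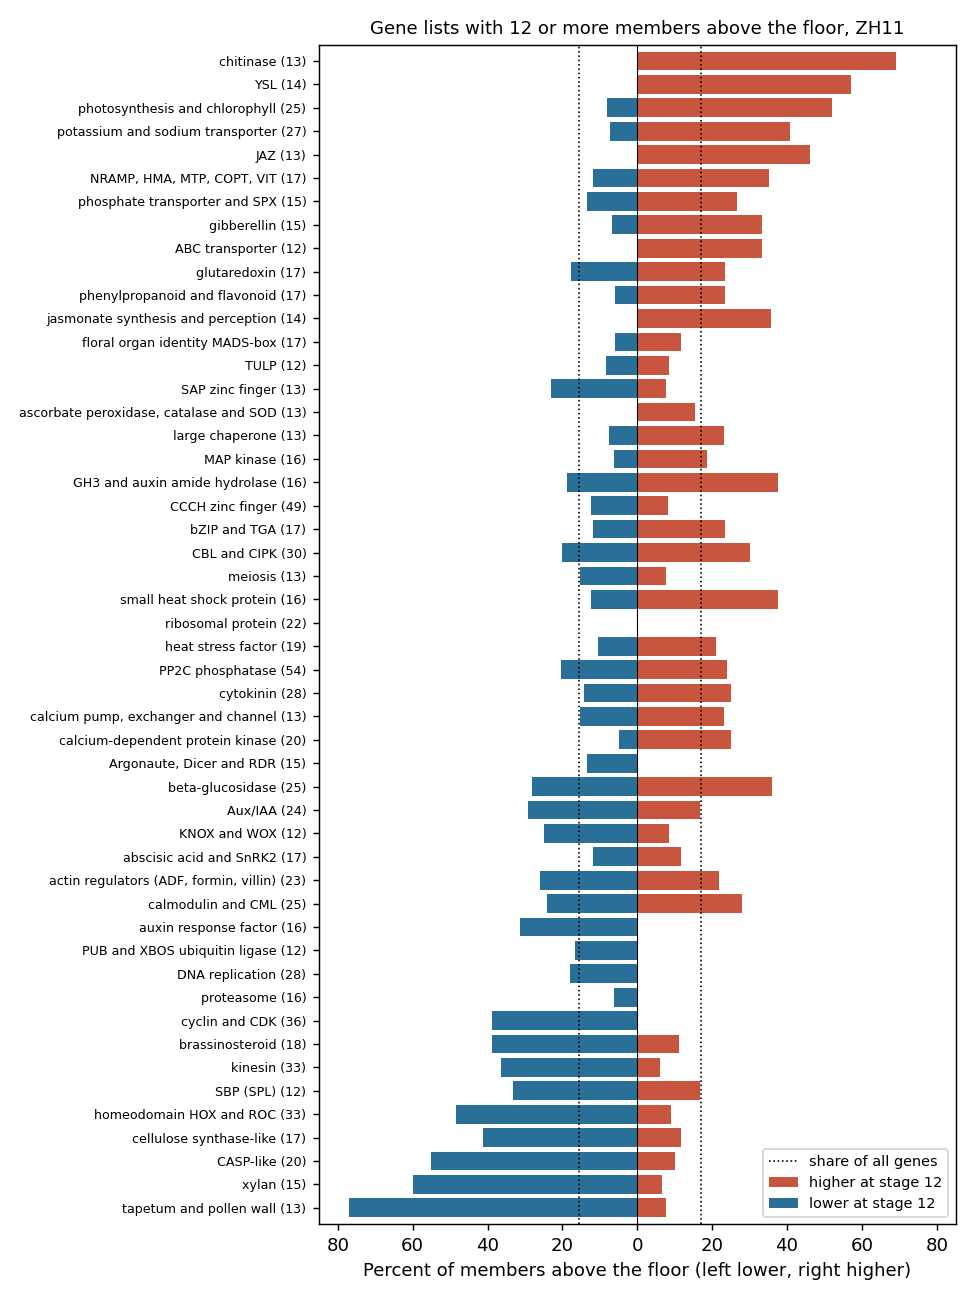
Share of the measured members of each list that was higher (red, right) or lower (blue, left) at stage 12 in ZH11, in percent, for lists with 12 or more members above the floor (number in brackets), sorted by median log2 ratio. Dotted lines mark 17.1% and 15.7%, the shares over all genes; tapetum, xylan and CASP-like genes reach furthest left, chitinase, YSL and photosynthesis genes furthest right.

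The cellulose synthase, cellulose synthase-like and xylan lists had more members lower than higher, and the COBRA-like list did not. Of 9 measured CESA genes 5 were lower and 1 higher (median -1.27). CESA5 fell 7.45-fold, from 5601 to 752. CESA6 fell 6.96-fold, from 5261 to 756. CESA1 fell 3.09-fold, from 7664 to 2480.2. These 3 are known for the primary wall, as is CESA8, which fell 2.41-fold, from 5188 to 2153. The subunits of the secondary wall stood apart from them. CESA9 rose 2.63-fold, from 392 to 1029. CESA4 had signals of 1785 at stage 9 and 3543 at stage 12, and CESA7 of 887 at stage 9 and 1685 at stage 12, both short of 2-fold. In RNAi all 3 secondary wall genes were higher, with log2 ratios of 2.05, 1.76 and 2.56. BC1, a COBRA-like protein needed for secondary wall cellulose, rose 2.05-fold, from 408 to 835, and of 4 COBRA-like genes 2 were higher and 0 lower. Among cellulose synthase-like genes 7 of 17 were lower and 2 higher (median -0.79). CSLF6, the main synthase of mixed-linkage glucan in grasses, fell 17.2-fold, from 3400.3 to 198. CSLF2, of the same subfamily, rose at least 24.1-fold, from 26.8 to 1711.

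Xylan genes had 9 of 15 lower and 1 higher, with a median of -1.33. GT43C, of the glycosyltransferase family that extends the xylan backbone, fell 19.5-fold, from 3098 to 159. GT43A, of the same family, fell 4.52-fold, from 1737 to 384. XOAT11, a xylan acetyltransferase, fell 8.28-fold, from 4485 to 542. Of the 6 other XOAT genes measured 5 were lower too. CASP-like membrane proteins, a family that includes those that place lignin in the root, had 11 of 20 lower and 2 higher. OsCASPL2C1 fell 4.43-fold, from 3856 to 869.8. Among endo-glucanases 6 of 11 were lower and 3 higher. OsCel9E fell 19.9-fold, from 1758 to 88.3, while GLU15 rose 4.16-fold, from 973 to 4052.

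Expansins had members that fell and members that rose. Among alpha-expansins 5 of 11 measured genes were lower and 4 higher. EXPA16 fell at least 42.9-fold, from 3043 to 60.1. EXPA7 fell 13.1-fold, from 3931 to 301. EXPA5 fell 11.2-fold, from 3027 to 269.8. Other members showed the opposite pattern. EXPA32 rose at least 24.6-fold, from 49.3 to 1745. EXPA26 rose at least 22.8-fold, from 50.9 to 1619. EXPA8 rose at least 11.2-fold, from 59.7 to 795. The last 3 were below the floor on both RNAi arrays. Among beta-expansins 4 of 10 were lower and 4 higher. EXPB11 fell at least 18.4-fold, from 1306 to 60.9. EXPB3 fell 5.13-fold, from 6165 to 1203. EXLA1, an expansin-like gene, rose 21.4-fold, from 188 to 4019, and in RNAi it rose from 198 to 3608. Beta-glucosidases, which release sugars and hormones from conjugates, had 9 of 25 higher and 7 lower. BGLU30 fell at least 24.6-fold, from 1748 to 30.9. BGLU8 fell 13.4-fold, from 5461 to 409. BGLU31 rose at least 13.1-fold, from 47.6 to 927.

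**Figure D4:**
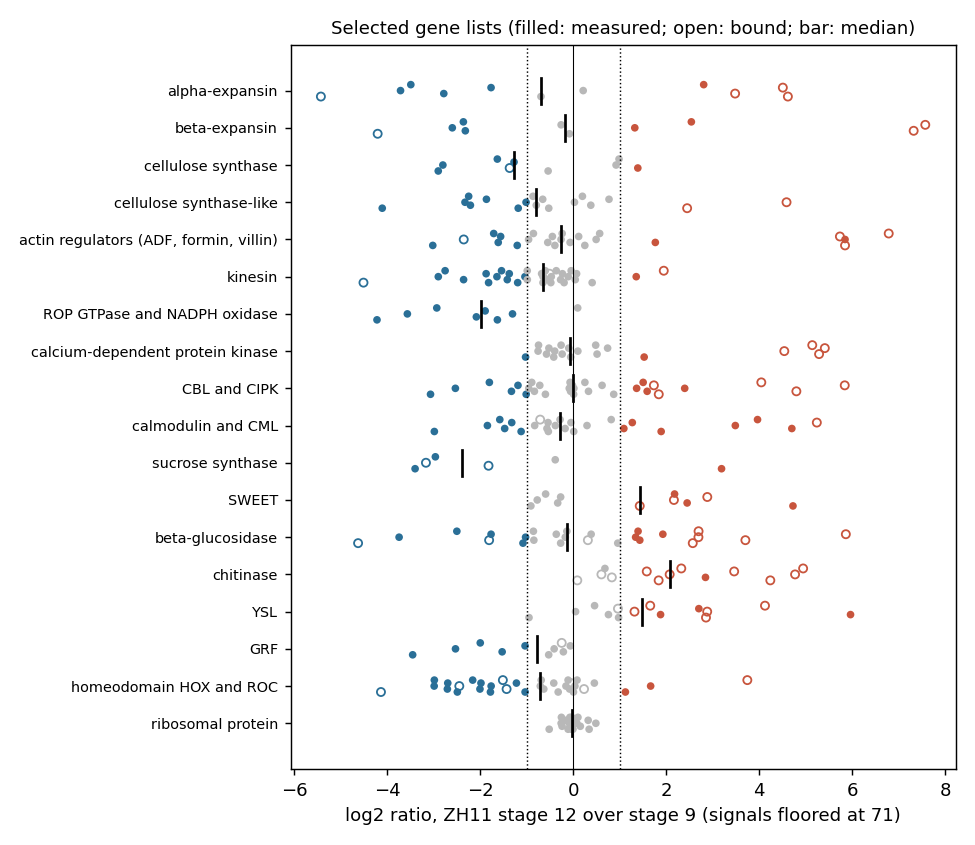
Log2 ratio of ZH11 stage 12 over stage 9 for each measured member of 18 gene lists; filled points were above the floor at both stages, open points are bounds, colours give the call (red higher, blue lower, grey within 2-fold), and black bars are medians. Alpha-expansins and actin regulators have members far to both sides, whereas the 22 ribosomal protein genes lie between -0.51 and 0.49.

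Cytoskeleton families held a few large rises. Of 23 measured ADF, formin and villin genes 5 were higher and 6 lower, and the largest rises were those of ADF1, ADF6, VLN4 and ADF9. VLN1, another villin, fell 8.09-fold, from 697 to 86.2. FH2, a formin that nucleates actin filaments, fell at least 5.10-fold, from 362 to 30.0. Of 10 actin and actin-related genes 1 was higher and 2 lower. ACT3 fell 2.49-fold, from 10532 to 4226, while ACT1 had 11458 at stage 9 and 13143 at stage 12. Microtubule genes had more members lower. Of 11 tubulins 4 were lower and 0 higher. TUBB7, a beta-tubulin, fell 3.72-fold, from 5882 to 1581. Of 33 kinesins, motors that run on microtubules, 12 were lower and 2 higher. In RNAi 20 kinesins were lower and 1 higher, where 15.8% of all 16060 measured genes were lower and 15% higher. KIN14F fell at least 22.7-fold, from 1613 to 61.4. KIN5A fell 6.73-fold, from 1607 to 239. KIN13B fell 5.11-fold, from 3888 to 761.

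Calcium signalling genes held several rises from below the floor. Of 20 calcium-dependent protein kinases, the family of OsCPK21, 5 were higher and 1 lower, with a median of -0.07. CPK2 rose at least 42.6-fold, from 22.4 to 3027. CPK22 rose at least 39.1-fold, from 34.0 to 2779. CPK29 rose at least 35.4-fold, from 33.1 to 2510.4. CPK6 rose at least 23.3-fold, from 48.9 to 1655 on the brighter of its 2 probe sets. These 4 were not called in RNAi, and the other 16 measured members were above the floor at both stages. OsCPK21 itself had a log2 ratio of 0.49 in ZH11. Among CBL sensors and their CIPK kinases 9 of 30 were higher and 6 lower. CIPK30 rose at least 27.9-fold, from 26.2 to 1981. CIPK20 rose at least 16.5-fold, from 36.1 to 1175. CIPK6 fell 8.36-fold, from 4547 to 544. Calmodulin and calmodulin-like genes, which sense calcium, had 7 of 25 higher and 6 lower. CML32 rose at least 37.8-fold, from 35.4 to 2687. CML28 rose 15.6-fold, from 102 to 1603. CML14 fell 7.90-fold, from 886 to 112. CML8 and CML1 differed from these in that they rose on both pairs of arrays. CML8 rose from 134 to 1504 in ZH11 and from 58.6 to 1903 in RNAi. CML1 rose from 139.9 to 3648 in ZH11 and from 86.0 to 2148 in RNAi.

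Other signalling families differed in how many members were called. The ROP small GTPases and the oxidase RBOHB, which set the polarity of growing cells, had 7 of 8 members lower. OsRac4 fell 7.62-fold, from 4407 to 578. OsRac3 fell 4.22-fold, from 4625 to 1095. OsRac6 had 5869 at stage 9 and 6292 at stage 12. Of 16 MAP kinase genes 3 were higher and 1 lower. MPK17 rose 18.3-fold, from 178 to 3255. MPK16 rose 9.29-fold, from 297 to 2763. PP2C phosphatases had 13 of 54 higher and 11 lower. OsPP2C59 rose at least 43.9-fold, from 39.0 to 3113. OsPP2C73 fell 15.3-fold, from 2568 to 168. All 7 genes of 14-3-3 proteins, adaptors of phosphorylated proteins, stayed within 2-fold.

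Sucrose synthases, which split sucrose for wall and starch synthesis, had 4 of 6 lower and 1 higher, with a median of -2.39. SUS1 fell 7.78-fold, from 9158 to 1177. SUS3 fell 10.5-fold, from 3153 to 299.5. SUS4 rose 9.15-fold, from 135 to 1233. The counts in RNAi were 4 lower and 1 higher. Other routes of sugar use had more members higher. Of 8 invertases 3 were higher and 0 lower, and CIN1, a cell wall invertase, rose 15.7-fold, from 119 to 1855. Of 11 SWEET sugar exporters 6 were higher and 0 lower. SWEET4 rose 5.48-fold, from 1381 to 7564, and SWEET14 rose at least 7.40-fold, from 26.2 to 525, both also higher in RNAi. SWEET5 rose 26.5-fold, from 146 to 3860, but in RNAi it had 165 at stage 9 and 111 at stage 12. In RNAi 5 of the SWEET genes were higher and 1 lower. SWEET11, which feeds the grain, had 3643 at stage 9 and 3029 at stage 12. Some importers rose as well. SUT1, for sucrose, rose 4.62-fold, from 589 to 2723. MST5, for monosaccharides, rose at least 24.9-fold, from 16.3 to 1767, and was below the floor on both RNAi arrays.

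Of 11 starch genes 4 were higher and 0 lower. GBSS1 (Waxy), the amylose synthase, rose at least 75.8-fold, from 26.0 to 5383, although its 6 probe sets gave log2 ratios from -0.08 to 6.24. Genes known for starch breakdown made up the rest. DPE2, which handles maltose in the cytosol, rose 7.35-fold, from 1383 to 10160.2. DPE1, its plastid counterpart, rose 4.02-fold, from 285 to 1145. PWD, a dikinase that primes starch for breakdown, rose 4.48-fold, from 757 to 3393. MEX1, counted among sugar transporters and known to carry maltose out of plastids, rose 9.35-fold, from 507 to 4739.9. Of these 5 genes DPE2 was called higher in RNAi, from 1654 to 4449, and the others were not. SS1, a starch synthase, had 1392 at stage 9 and 1206 at stage 12. Of 7 hexokinases, which phosphorylate glucose, 4 were higher and 1 lower. HXK5 rose 4.11-fold, from 1182 to 4857. HXK7 (LOC4338010) fell 2.46-fold, from 2492 to 1012.

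Several families of ion and metal transporters had more members higher than lower. Of 27 potassium and sodium transporters 11 were higher and 2 lower (median 0.92). HAK26 rose at least 20.3-fold, from 5.20 to 1439. HAK10 rose 7.23-fold, from 532 to 3843. Of 14 YSL genes, whose products carry metals bound to nicotianamine, 8 were higher and 0 lower (median 1.49). YSL4 rose at least 17.5-fold, from 22.9 to 1241. YSL18 rose at least 7.39-fold, from 60.8 to 524. YSL16 rose 3.69-fold, from 564 to 2079.9. YSL16 rose in RNAi too, whereas YSL4 and YSL18 were below the floor on both RNAi arrays. Of 7 ammonium and nitrate transporter genes 4 were higher and 0 lower. AMT1, an ammonium importer, rose 11.7-fold, from 133 to 1554. NAR2.2, a partner protein of nitrate transporters, rose 7.41-fold, from 110.0 to 815. Metallothioneins, small metal-binding proteins, had 4 of 7 higher and 1 lower. MT1A rose 21.2-fold, from 144 to 3049. MT2A rose 6.40-fold, from 1615 to 10328. MRS2-A, of a magnesium transporter family, rose 7.05-fold, from 636 to 4481.

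Aquaporins differed by subfamily in their counts. Plasma membrane PIPs had 1 of 10 higher and 2 lower, tonoplast TIPs 3 of 7 higher and 0 lower, and NIPs with SIPs 1 of 7 higher and 3 lower. PIP2-6 fell 5.13-fold, from 11609 to 2263. TIP1-2 rose 22.4-fold, from 208 to 4650.5. NIP2-1, the silicon importer, rose 11.7-fold, from 79.2 to 923.

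Brassinosteroid genes had 7 of 18 members lower and 2 higher. D11, of hormone synthesis, fell at least 5.46-fold, from 387 to 53.9. BRI1, the receptor, fell 2.34-fold, from 2366 to 1012. BZR1, the transcription factor of the pathway, fell 4.27-fold, from 515 to 120.4. Genes for making, sensing and removing the hormone were thus among those that fell, since CYP734A6, which inactivates it, fell 10.4-fold, from 837 to 80.6. BU1, a helix-loop-helix protein that the hormone induces, rose 11.9-fold, from 81.2 to 966. For auxin, Aux/IAA repressors had 7 of 24 lower and 4 higher, and response factors 5 of 16 lower and 0 higher. ARF7 fell 3.48-fold, from 2388 to 687. PIN3A, an auxin exporter, fell 3.84-fold, from 2188 to 569. Genes that conjugate or release auxin had 6 of 16 higher and 3 lower. GH3.2, which conjugates it, rose at least 46.9-fold, from 47.6 to 3329. ILL8, of the hydrolase family, fell 5.38-fold, from 1263 to 235.

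Gibberellin genes had 5 of 15 higher and 1 lower. Besides CPS1 and KAO, GA20OX3, which acts at a late step of synthesis, rose 11.1-fold, from 452 to 5002. KS1, the enzyme after CPS1, had 600.5 at stage 9 and 1114 at stage 12. GID1, the receptor, fell 2.56-fold, from 2727 to 1064. SLR1, the repressor that the receptor removes, had 814 at stage 9 and 739 at stage 12. Cytokinin genes had 7 of 28 higher and 4 lower. Activating enzymes of the LOG family went both ways. LOGL1 rose 7.43-fold, from 271 to 2011. LOGL9 fell 7.53-fold, from 978 to 129.9. CKX5, which degrades cytokinin, rose 4.57-fold, from 369 to 1686. Ethylene genes had 2 of 10 higher and 1 lower, and abscisic acid genes 2 of 17 higher and 2 lower. ACO1, of the last step of ethylene synthesis, fell 4.27-fold, from 2532 to 593. SAPK9, a kinase of the abscisic acid response, fell 5.58-fold, from 2711 to 486. Of 13 JAZ repressors of jasmonate signalling 6 were higher and 0 lower, against 0 higher and 4 lower in RNAi. JAZ8 rose 4.57-fold, from 384 to 1755, and in RNAi it had 1617 and 899. COI2, of the receptor family, rose 2.42-fold, from 1745 to 4225. AOC, of jasmonate synthesis, had 3638 at stage 9 and 3460.1 at stage 12.

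Families of transcription factors known for early organ growth had more members lower. The homeodomain list had 16 of 33 lower and 3 higher. HOX2 fell 7.90-fold, from 3075 to 389. Roc6, whose relatives in Arabidopsis act in the epidermis, fell 6.51-fold, from 2459 to 378. HOX24 rose at least 13.4-fold, from 35.2 to 954. Growth-regulating factors had 5 of 10 lower and 0 higher. GRF3 fell 10.9-fold, from 969 to 88.8. GRF4, which sets grain size, fell 3.98-fold, from 893 to 224. Of 12 SPL factors 4 were lower and 2 higher. YAB4, of the YABBY family, fell 10.8-fold, from 1384 to 129. Floral organ identity genes had 2 of 17 higher and 1 lower. MADS16, for lodicules and stamens, had 9226 at stage 9 and 11295 at stage 12. MADS1, for lemma and palea, had 8872 at stage 9 and 9312 at stage 12.

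Other factor families were small or divided. DREB1B, of the cold-response family, fell 11.0-fold, from 1293 to 117. DREB1G fell 9.29-fold, from 699 to 75.3, while DREB1A had 204 at stage 9 and 277 at stage 12. Of 7 NAC factors 4 were higher and 0 lower. NAC068 rose 10.7-fold, from 153 to 1633. Of 10 MYB factors 4 were higher and 0 lower. JAMYB rose at least 22.9-fold, from 15.2 to 1625. GAMYB, the gibberellin-regulated MYB of the anther, had 1969.9 at stage 9 and 1727 at stage 12. Of 11 bHLH factors 5 were lower and 2 higher. CCCH zinc fingers had 4 of 49 higher and 6 lower, smaller shares than over all genes. OsC3H54 rose at least 23.1-fold, from 22.3 to 1641.

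Genes of cell division had no member higher in 2 lists. Of 36 cyclins and CDKs 14 were lower and 0 higher. CYCD4-1, a D-type cyclin, fell 4.77-fold, from 906 to 189.9. CDKA-1, the main cell cycle kinase, fell 2.06-fold, from 2286 to 1109. Of 28 DNA replication genes 5 were lower and 0 higher, against 10 lower in RNAi. MCM2, of the replicative helicase, fell 2.06-fold, from 377 to 182. MCM7, of the same complex, fell 2.29-fold, from 226 to 98.6. PCNA, the sliding clamp, had 752 at stage 9 and 431 at stage 12. CDK inhibitors went both ways, with 1 of 6 higher and 2 lower. SMR1 rose 25.8-fold, from 97.9 to 2522, and in RNAi it rose from 108 to 2550. KRP6 fell 8.39-fold, from 693 to 82.6. CMT3, a DNA methyltransferase, fell 3.08-fold, from 247 to 80.2. Of 13 meiosis genes 1 was higher and 2 lower. SPO11-4, of the SPO11 family, fell 2.69-fold, from 3028 to 1127.

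Housekeeping lists had few calls. All 22 ribosomal protein genes and all 8 translation factors stayed within 2-fold, with medians of -0.03 and -0.10. Of 16 proteasome genes 1 was lower and the median was -0.36. That gene was RPT1A, of the proteasome's regulatory cap, which fell 3.22-fold, from 1003 to 311.

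The chitinase and diterpenoid phytoalexin lists had many members higher, and the phenylpropanoid list had a smaller share. Of 13 chitinases, which cut fungal walls, 9 were higher and 0 lower (median 2.08). Cht2 rose at least 30.9-fold, from 23.4 to 2191. Cht4 rose at least 27.4-fold, from 9.85 to 1943. Cht1 rose at least 11.0-fold, from 18.5 to 784. All 3 rose in RNAi too, Cht4 from 12.0 to 3869. Diterpenoid phytoalexin genes had 7 of 10 higher and 0 lower. CPS2, which starts one branch of these defence compounds, rose at least 9.45-fold, from 5.29 to 671. KSL4, of another branch, rose at least 5.14-fold, from 9.35 to 365. Phenylpropanoid genes had 4 of 17 higher and 1 lower. PAL06, of the family that opens the pathway, rose 13.4-fold, from 176 to 2364. CHS1, chalcone synthase, rose 2.40-fold, from 3096 to 7438, and in RNAi it rose from 176 to 7819.6. CAD7, of the alcohol dehydrogenases of lignin synthesis, fell 10.3-fold, from 999 to 96.6.

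Of 25 photosynthesis and chlorophyll genes 13 were higher and 2 lower (median 1.09), and in RNAi 13 were higher. CAO, which makes chlorophyll b, rose 8.85-fold, from 269 to 2378. RCAA1, Rubisco activase, rose 6.84-fold, from 553 to 3782. LHCP, a light-harvesting protein, rose 4.91-fold, from 1446 to 7108. A factor that switches on such genes and a protective enzyme rose too. GLK1, the factor, rose 3.54-fold, from 223 to 788. APX8, a chloroplast ascorbate peroxidase, rose 5.71-fold, from 195 to 1111. CHLH, the large subunit of magnesium chelatase, had 1201 at stage 9 and 114 at stage 12 on its brighter probe set, but a log2 ratio of 1.70 on its other probe set, so its direction depends on the probe set read.

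Of the genes measured, 3444 had several probe sets and 967 of these were called. In 329 of the 967 (34.0%) every probe set passed 2-fold the same way, and in 13 another probe set passed 2-fold the opposite way. The value given is that of the brightest probe set. Among the genes named above, besides GBSS1, TDL1B and CHLH, another probe set missed 2-fold in the same direction for NifU1, CESA1, CSLF6, EXPA7, ACT3, CPK6, OsPP2C73, AMT1, MT2A, GID1, Roc6, CDKA-1, KRP6, Cht2 and CHS1.

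The RNAi arrays form a separate pair over the same stages. The trimmed mean signals of the RNAi arrays were 358 at stage 9 and 333 at stage 12, against 367 and 363 in ZH11. Control signals on the RNAi arrays also moved with stage. The 3-prime over 5-prime ratios at stages 9 and 12 were 4.20 and 8.53 for the first actin set, 2.50 and 3.48 for Gapdh, and 1.07 and 1.26 for cyclophilin. The second actin set gave larger ratios here too. The 18S rRNA signal was 4961 at stage 9 and 1579 at stage 12. The part of these shifts in the calls shared by both pairs was not tested. Of the 2807 genes higher in ZH11, 1640 (58.4% of the ZH11 list, 68.3% of the RNAi list) were also higher in RNAi and 79 were lower there. Of the 2574 genes lower in ZH11, 1838 (71.4% of the ZH11 list, 72.5% of the RNAi list) were also lower in RNAi and 14 were higher there. These shares stand against 15% higher and 15.8% lower over the 16060 genes measured in RNAi. The 2 sets are not alike, since the ZH11 lists include genes at or below the floor on both RNAi arrays. These were 314 of the higher and 23 of the lower genes. At 4-fold the shares also called the same way in RNAi were 60.1% for higher and 91.5% for lower genes. These shares parted further at larger folds. Among genes at least 16-fold lower in ZH11, 202 of 210 (96.2%) were lower in RNAi, and at 64-fold 37 of 39 (94.9%). Among genes at least 16-fold higher, 120 of 323 (37.2%) were higher in RNAi, and at 64-fold 4 of 58 (6.9%). Of the 237 genes above the floor at stage 12 alone and at least 16-fold higher, 91 were above the floor at stage 12 in RNAi and 66 were called higher there. Of the 103 above it at stage 9 alone and at least 16-fold lower, 99 were lower in RNAi. With 1 array a group, the difference between the genotypes was not tested.

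**Figure D5:**
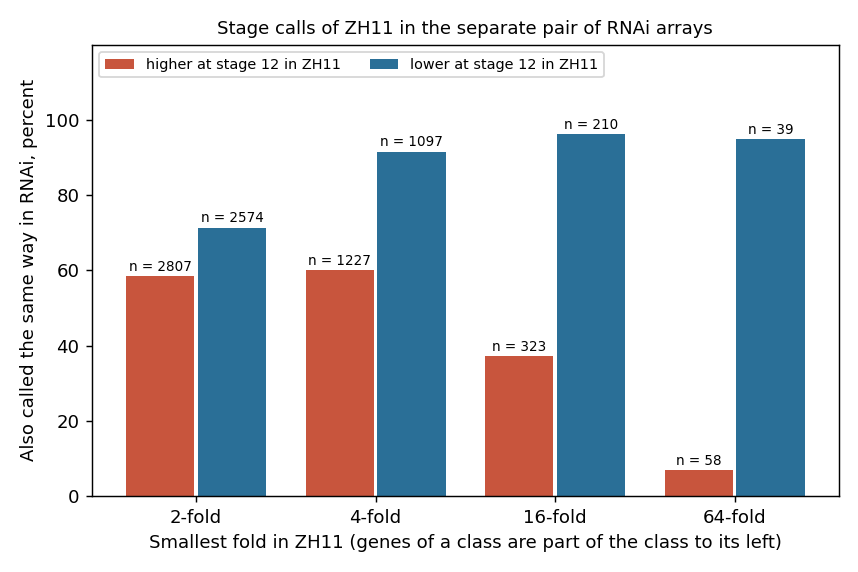
Percent of the genes called in ZH11 that were called the same way on the RNAi arrays, by the smallest fold in ZH11, with the number of ZH11 genes over each bar (red, higher at stage 12; blue, lower). For the higher genes the share is 58.4% at 2-fold and 6.9% at 64-fold, and for the lower genes it lies between 71.4% and 96.2%.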

How the data were processed

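Whole spikelets were read on the Affymetrix Rice Genome Array, 1 array for each of 4 groups. The authors deposited linear signal intensities, made with MAS5 per the submitters' processing notes; the sources used here give neither its version nor its scaling. Depth is not counted on arrays, so the number of arrays limits the precision. Groups follow the sample titles. Platform annotation gave 1 gene for 22436 probe sets, and probe sets with several genes (95) or none (34727) stayed out of gene counts. Gene names and the gene order come from RefSeq assembly ASM3414082v1, with a few names in common use put in place of symbols. The brightest probe set stood for a gene. Signals were floored at 71 and ratios taken in log2 with Python 3.11.15, pandas 2.3.3 and numpy 2.4.6. No test was run. Members, lists and named genes were chosen with earlier results of these data known. Named genes were drawn from the largest measured and bounded changes, up to 6 per list, and the brightest genes. Up to 3 bare loci each way and members needed for a role were added. Not every gene that met these rules is described. The alternatives changed the floor, scaling, probe set choice and probe set averaging.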

Additional observations from a re-analysis of the deposited data

Results flagged for a closer look

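In 93 genes the stage difference was called in opposite directions in ZH11 and RNAi, past 2-fold in each, and with 1 array a group the difference between genotypes was not tested. Of these, 16 have a symbol, and 13 of the 16 were higher at stage 12 in ZH11 and lower in RNAi. Values are log2 ratios of stage 12 over stage 9, and a ratio alone does not show at which stage the genotypes differed. The word bound in brackets marks a ratio whose dimmer array lay at or below the floor. Of the jasmonate lists, JAZ11 had 2.61 in ZH11 and -1.94 in RNAi, and JAZ13 had 2.4 and -2.4. From stage 9 to stage 12 the JAZ11 signal went from 292 to 1777 in ZH11 and from 3189 to 828.5 in RNAi. That of JAZ13 went from 102 to 538 in ZH11 and from 5923 to 1121 in RNAi. OPR1, of the oxophytodienoate reductase family, had 1.27 and -2.58. BHLH148, a helix-loop-helix factor, had 2.26 (bound) and -2.27. Its signals went from 45.1 to 339 in ZH11 and from 3854 to 799 in RNAi. Among signalling genes CML32, a calmodulin-like protein, had 5.24 (bound) and -1.35, and the MAP kinase MPK17 had 4.2 and -1.03. The CML32 signal went from 35.4 to 2687 in ZH11 and from 392 to 154 in RNAi. Of the protein phosphatase 2C family, PP2C13 had 1.11 and -1.18, OsPP2C15 had 1.35 and -1.55, and OsPP2C75 had 1.03 and -1.36. The 3 probe sets of OsPP2C75 gave ZH11 log2 ratios from 0.52 to 1.45. The remaining genes had other roles. HSP24.1, a small heat shock protein, had 2.04 (bound) and -1.06. Its signals went from 45.5 to 293 in ZH11 and from 673 to 322 in RNAi. SPL18, a transcription factor, had 1.75 and -1.35 (bound). BC1L9, a COBRA-like protein, had 2.08 (bound) and -1.01. Its signals went from 67.2 to 300 in ZH11 and from 1748 to 866 in RNAi. TPP2 (LOC4349333), a trehalose phosphatase, had 1.37 and -1.33. The other 3 were lower at stage 12 in ZH11 and higher in RNAi. HXK7 (LOC4338010), a hexokinase, had -1.3 in ZH11 and 2.08 in RNAi. AT4 had -1.54 and 1.05, and ERG1 had -1.47 and 1.4.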

How the results depend on the processing

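Across 7 alternatives (the floor at 142 or at 35.5, 71 added to each signal in place of the floor, median scaling, quantile normalization, cross-matching probe sets left out, and the mean over a gene's probe sets) 2354 to 3047 genes were higher and 2263 to 2717 lower. The percent of ZH11 calls also called in RNAi was 56.4 to 61.3 for higher and 67.3 to 71.7 for lower genes. With the floor at 35.5, 756 genes were above it at stage 12 alone and 424 at stage 9 alone, since a lower floor leaves fewer genes below it. The direction of a list turned in 6 cases, given as members higher minus lower. With 71 added to each signal the balance was -2 for PP2C phosphatases (2 in the report's setting), -1 for zinc and iron ZIP genes (1), -1 for heat stress factors (2) and 1 for lipoxygenases (-1). With the mean over probe sets it was -1 for ethylene genes (1) and -1 for heat stress factors. CHLH had 1.70 (log2) without cross-matching probe sets and -3.40 with them. The cause was not tested. No paired analysis was possible because each group had 1 array and no replicate number, and no array could be left out. Signals near the floor limit every bound.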

Other observations

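Redox and metal-handling lists not described above held further changes. Of 17 glutaredoxins, small proteins that reduce disulfides, 4 were higher and 3 lower. GRXC10 rose at least 19.4-fold, from 47.5 to 1379. GRXC8 fell 2.19-fold, from 3328 to 1521. Of 11 thioredoxins 3 were higher and 0 lower. OsTrx20 rose at least 22.5-fold, from 31.5 to 1601 on the brighter of its probe sets, and was at or below the floor on both RNAi arrays. Of 17 further metal transporters 6 were higher and 2 lower. NRAMP5, which takes up manganese, rose 2.34-fold, from 479 to 1121. COPT1, of the copper transporter family, fell 4.14-fold, from 727 to 175. Phosphate genes had 4 of 15 higher and 2 lower. PHT1-8, a phosphate importer, rose 3.64-fold, from 451 to 1643.

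Genes of secretion and storage gave a mixed picture. Lipid transfer proteins had 1 of 7 higher and 3 lower. LTP rose 10.2-fold, from 486 to 4966. LTP110-A fell 8.67-fold, from 14214 to 1640.1. Among BURP proteins BURP17 rose at least 12.9-fold, from 23.1 to 919, and BURP12 fell 5.84-fold, from 863 to 148. GLUA-2, a glutelin of the seed storage list, rose 9.33-fold, from 138 to 1286. Of 6 laccases, which oxidise lignin precursors, 1 was higher and 3 lower. AMY1.3, an alpha-amylase, rose at least 22.0-fold, from 11.5 to 1560.5, and rose in RNAi too, from 18.2 to 567. Of 16 small heat shock proteins 6 were higher and 2 lower. All these values compare 1 array with 1 array and none was tested.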
